A study of Mus musculus with 43 samples.

Results

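Hopx, Fn3krp, Gm8210, Bend4 and Gm42732 are 5 of the 56980 genes counted in L2/3 neurons of the mouse somatosensory cortex. They were chosen by their log2 fold change between Cux2 KO and WT L2/3 neurons at P4, which had the same sign in both sexes, so the Cux2 KO against WT values at P4 describe the choice and were not tested. Hopx, Fn3krp and Gm8210 were chosen as higher in Cux2 KO neurons, and Bend4 and Gm42732 as lower. The libraries at E19 and P7 and those of Cux1 KO neurons did not enter the choice, but the WT libraries at P4 were its controls, and they also enter the comparisons of WT stages, of Cux1 KO neurons at P4 and of the sexes at P4.

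The study asked which genes the transcription factors CUX1 and CUX2 affect in upper-layer neurons of each sex. All mice were of the C57BL/6JRccHsd strain, and all were electroporated in utero at E15.5 with a plasmid for GFP, after which GFP+ cells were sorted by FACS and their RNA was sequenced as 1 library per sample. WT neurons gave 4 libraries per sex at E19, 3 per sex at P4, and 2 female and 3 male libraries at P7. Cux2 KO neurons came from germline Cux2-/- mice, with 4 libraries per sex at E19 and 3 per sex at P4. Cux1 KO neurons at E19 came from germline Cux1 ΔC/ΔC mice, with 4 libraries per sex, whereas the 2 male Cux1 KO libraries at P4 came from Cux1 f/Δ23 mice in which a CRE plasmid produced Cux1 Δ23/Δ23 cells among the electroporated ones. The germline mutations were present in every cell of the animal and not in neurons alone, and the Cux1 KO neurons at P4 also carried a CRE-dependent GFP plasmid that the other groups did not. The E19 libraries were sequenced in a first round and the P4 and P7 libraries in a second, so that stage and round cannot be told apart. The labels do not say how many animals gave each library, and p-values measure the spread between these libraries, which may be technical.

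HOPX is an unusual homeodomain protein that does not bind DNA itself and acts through partners such as serum response factor and histone deacetylases, and in the cortex it is known as a marker of radial glia and of astrocytes. FN3KRP is a kinase that acts on sugar adducts of proteins and so helps to reverse glycation, and BEND4 is a member of the BEN-domain family, several members of which repress transcription. Gm42732 is a short transcript that still awaits experimental evidence, and Gm8210 is a processed copy, without introns, of Rpl29, the gene of a protein of the large ribosomal subunit.

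In the GRCm39 build, Hopx (ENSMUSG00000059325) lies on the minus strand of chromosome 5 at 77234831 to 77263022, Bend4 (ENSMUSG00000092060) on the minus strand at 67523138 to 67585653, and Gm42732 (ENSMUSG00000107331) on the plus strand at 73468707 to 73469903. Cux2 lies on the same chromosome at 121994429 to 122188521, at a distance of 44.7 Mb from Hopx, 48.5 Mb from Gm42732 and 54.4 Mb from Bend4. Fn3krp (ENSMUSG00000039253) lies on chromosome 11 at 121312215 to 121322118, and Gm8210 (ENSMUSG00000094497) on chromosome 1 at 43228316 to 43228798. Gm42732 sits in an intron of Ociad1 on the same strand, and Gm8210 lies inside Fhl2 on the opposite strand with 186 exonic bases in common. Hopx overlaps the antisense lncRNA Hopxos over 1398 exonic bases, but Hopxos had 0 counts in all but 4 libraries. It had 2 counts in a Cux1 KO female and 3 and 4 counts in Cux2 KO males at E19, and 16 counts (0.573 CPM) in the second WT male library at P7, in which Hopx was at 1.33 CPM. The library kit does not mark strand, so reads of overlapping genes cannot be told apart.

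Gm8210 needs its sequence beside it, because its 483 bases are nearly those of the Rpl29 coding sequence and reads were 60 bases long. Rpl29 differed from Gm8210 by A72C, T300C and C423T, counted from 1 at the 5′ end of Gm8210, where the first letter is the base of Gm8210. Gm14036 on chromosome 2 differed by A72C and G231A, and Gm13841 on chromosome 5, 6.05 Mb from Cux2, did not differ at any of the 483 bases. The stretch from position 286 to 435 (GRCm39) is shown with positions 300 and 423 in capitals, the 2 bases that set Rpl29 apart from every copy compared.
Gm8210: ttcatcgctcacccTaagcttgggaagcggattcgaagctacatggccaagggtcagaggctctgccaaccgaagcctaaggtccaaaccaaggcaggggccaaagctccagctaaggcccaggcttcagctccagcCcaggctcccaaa
Gm14036: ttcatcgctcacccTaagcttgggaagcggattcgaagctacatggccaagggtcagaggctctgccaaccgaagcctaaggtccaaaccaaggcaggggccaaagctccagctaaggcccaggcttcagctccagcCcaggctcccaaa
Rpl29: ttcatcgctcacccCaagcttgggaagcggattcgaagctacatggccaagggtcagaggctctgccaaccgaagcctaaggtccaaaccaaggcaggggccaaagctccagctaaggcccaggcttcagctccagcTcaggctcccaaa
Over this stretch Gm8210 and Gm14036 had the same letters, and a read within it that spans neither capital fits Rpl29 and its copies alike. Outside it, a read over position 72 also tells Rpl29 from Gm8210.

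For Hopx, Fn3krp and Bend4, 250 bases before to 50 bases after each start site (RefSeq, GRCm38.p6) are shown. The CCAAT sequence, read on either strand as CCAAT or ATTGG, is in capitals, because CUX1 is known for displacing factors from CCAAT boxes. RefSeq gave 2 start sites for Hopx and 1 each for Fn3krp and Bend4, and none was matched for Gm42732 and Gm8210.
Hopx start 1 (chr5:77115074-77115373, minus strand): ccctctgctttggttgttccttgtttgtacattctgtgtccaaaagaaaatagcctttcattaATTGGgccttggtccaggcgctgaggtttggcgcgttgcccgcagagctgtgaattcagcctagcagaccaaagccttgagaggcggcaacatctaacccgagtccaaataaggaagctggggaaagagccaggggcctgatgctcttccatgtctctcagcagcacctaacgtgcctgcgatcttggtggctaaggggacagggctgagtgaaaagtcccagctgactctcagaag
Hopx start 2 (chr5:77095218-77095517, minus strand): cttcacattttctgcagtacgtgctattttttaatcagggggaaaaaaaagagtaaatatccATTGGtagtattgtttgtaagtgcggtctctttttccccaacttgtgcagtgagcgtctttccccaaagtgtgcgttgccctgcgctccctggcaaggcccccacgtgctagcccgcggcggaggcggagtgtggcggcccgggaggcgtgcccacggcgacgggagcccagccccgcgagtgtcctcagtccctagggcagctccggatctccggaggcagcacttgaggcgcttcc
Fn3krp (chr11:121421123-121421422, plus strand): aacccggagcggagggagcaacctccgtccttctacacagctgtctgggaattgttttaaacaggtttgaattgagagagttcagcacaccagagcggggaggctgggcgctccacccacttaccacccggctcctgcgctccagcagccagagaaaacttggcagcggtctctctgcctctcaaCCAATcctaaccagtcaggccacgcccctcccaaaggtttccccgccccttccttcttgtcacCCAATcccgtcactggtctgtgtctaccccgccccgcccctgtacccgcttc
Bend4 (chr5:67427750-67428049, minus strand): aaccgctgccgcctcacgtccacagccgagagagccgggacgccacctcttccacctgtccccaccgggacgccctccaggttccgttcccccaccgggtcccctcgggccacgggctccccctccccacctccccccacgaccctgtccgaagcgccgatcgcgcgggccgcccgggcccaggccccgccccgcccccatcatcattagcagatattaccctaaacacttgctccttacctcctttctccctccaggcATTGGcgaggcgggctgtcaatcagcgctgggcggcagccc
CCAAT occurred at 1 place in each Hopx and Bend4 promoter and at 2 places in that of Fn3krp, and it occurred in 37.4% of the 32851 promoters of this length. ATCGAT, the other sequence CUX homeodomain proteins are known to bind, was not found in these windows and occurred in 0.925% of all promoters. These matches describe letters and do not show binding.

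The 24 libraries at E19 held 13321095 to 20715732 counts, the 14 at P4 held 19499125 to 60559585 and the 5 at P7 held 15312029 to 27633827, and a gene with a count of 0 may have had up to 3 counts, which came to at most 0.235 CPM. Values are counts scaled by TMM to the size of each library (CPM), and differences are log2 fold changes (log2FC) with their SE from edgeR. The targeted genes did not check the labels, since counts cover a gene as a whole. Cux2 was at 28.1 to 46.4 CPM in the 6 WT and at 29.6 to 60.5 CPM in the 6 Cux2 KO libraries at P4, and Cux1 was at 88.1 to 157 CPM in the WT and at 83.2 and 168 CPM in the Cux1 KO libraries at P4. The 10 upper-layer neuron genes, among them Pou3f3 and Rorb, summed to 3239 to 4926 CPM at E19 and to 1108 to 2262 CPM at P4. The 24 genes of radial glia and astrocytes summed to 5099 to 7582 CPM at E19, led by Ptprz1 and Tnc. At P4 they summed to 9578 to 15823 CPM, led by Ptprz1 and Slc1a3. The sorted cells thus held RNA of the glial list at both stages, and no gene of either list was at 0 in any genotype. In bulk samples, fewer cells of a type and less RNA per cell cannot be told apart.

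At P4, Hopx, Fn3krp and Gm8210 were several times higher and Bend4 and Gm42732 several times lower in Cux2 KO than in WT L2/3 neurons of either sex. Hopx, the partner of serum response factor, was at 0.647, 1.34 and 1.55 CPM in the WT female libraries and at 16.5, 15.7 and 24.2 CPM in the Cux2 KO female libraries. In males it was at 1.56, 1.11 and 1.39 CPM in WT and at 14.8, 21.7 and 31.6 CPM in Cux2 KO neurons. The lowest Cux2 KO library of either sex thus lay above the highest WT library, and the log2FC of Hopx was 3.99 ± 0.41 in females and 4.05 ± 0.39 in males (SE, n = 3 against 3 in each sex). Over both sexes the mean of Hopx in Cux2 KO neurons was 16.4 times that in WT neurons.

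Fn3krp, the deglycating kinase, was at 2.05, 1.91 and 3.37 CPM in WT females and at 16.0, 26.9 and 17.6 CPM in Cux2 KO females. Its levels in males were 2.45, 2.30 and 1.29 CPM in WT and 44.0, 21.7 and 39.4 CPM in Cux2 KO neurons. Every Cux2 KO library was above every WT library, with a log2FC of 3.05 ± 0.35 in females and 4.11 ± 0.43 in males.

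Bend4 went the other way, from 44.1, 47.4 and 26.7 CPM in WT females to 8.41, 4.56 and 7.00 CPM in Cux2 KO females. In males it was at 87.7, 47.4 and 49.3 CPM in WT and at 21.9, 3.52 and 4.97 CPM in Cux2 KO neurons. The groups did not overlap, although the first Cux2 KO male library stood apart from the other two, and the log2FC was -2.56 ± 0.33 in females and -2.61 ± 0.75 in males. Without that library the male log2FC of Bend4 was -3.87.

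Gm42732, the intronic transcript of Ociad1, followed Bend4, with 10.9, 9.90 and 14.1 CPM in WT females and 2.31, 1.99 and 1.50 CPM in Cux2 KO females. Male libraries gave 17.7, 16.6 and 20.3 CPM in WT and 3.64, 1.06 and 0.379 CPM in Cux2 KO neurons. The groups did not overlap, the log2FC was -2.58 ± 0.30 in females and -3.43 ± 0.81 in males, and without the first Cux2 KO male library the latter was -4.62. Ociad1, the host gene, was far more abundant, with group means of 182 to 223 CPM, and its log2FC was -0.18 ± 0.15 in females (adjusted p = 0.818, edgeR) and -0.25 ± 0.15 in males (adjusted p = 0.999, edgeR).

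Libraries of all 5 genes did not overlap between Cux2 KO and WT in either sex, against 15.9% of the 19538 genes tested in females and 12.5% of the 19720 in males, and all 5 passed an absolute log2FC of 1, against 11.3% and 14.5%. These counts follow from the choice of the genes. By edgeR 0 genes passed an adjusted p of 0.05 in either comparison, with 1443 genes in females and 1136 in males at an unadjusted p under 0.05, whereas DESeq2 with its prior on log2FC called 42 genes in females (0.237% of 17705) and 75 in males (0.407% of 18442). DESeq2 with its prior called 6 genes in both sexes, the 5 chosen and Gm14036, the latter with shrunken log2FC of 1.43 in females and 1.45 in males. DESeq2 without shrinkage called 183 genes in females (0.853% of 21452) and 368 in males (1.65% of 22359), and 17 in both sexes, again with the 5 chosen among them. With the prior, Bend4 lay just inside at -1.80 and -1.01. Just outside, also with the prior, lay Gm6916 at 0.88 and 1.03, Gm13841 at 0.85 and 0.89 and Frmpd2 at 0.81 and 0.97. Gm6916, Gm13841 and Frmpd2 were among the 17 called without shrinkage.

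**Figure D1:**
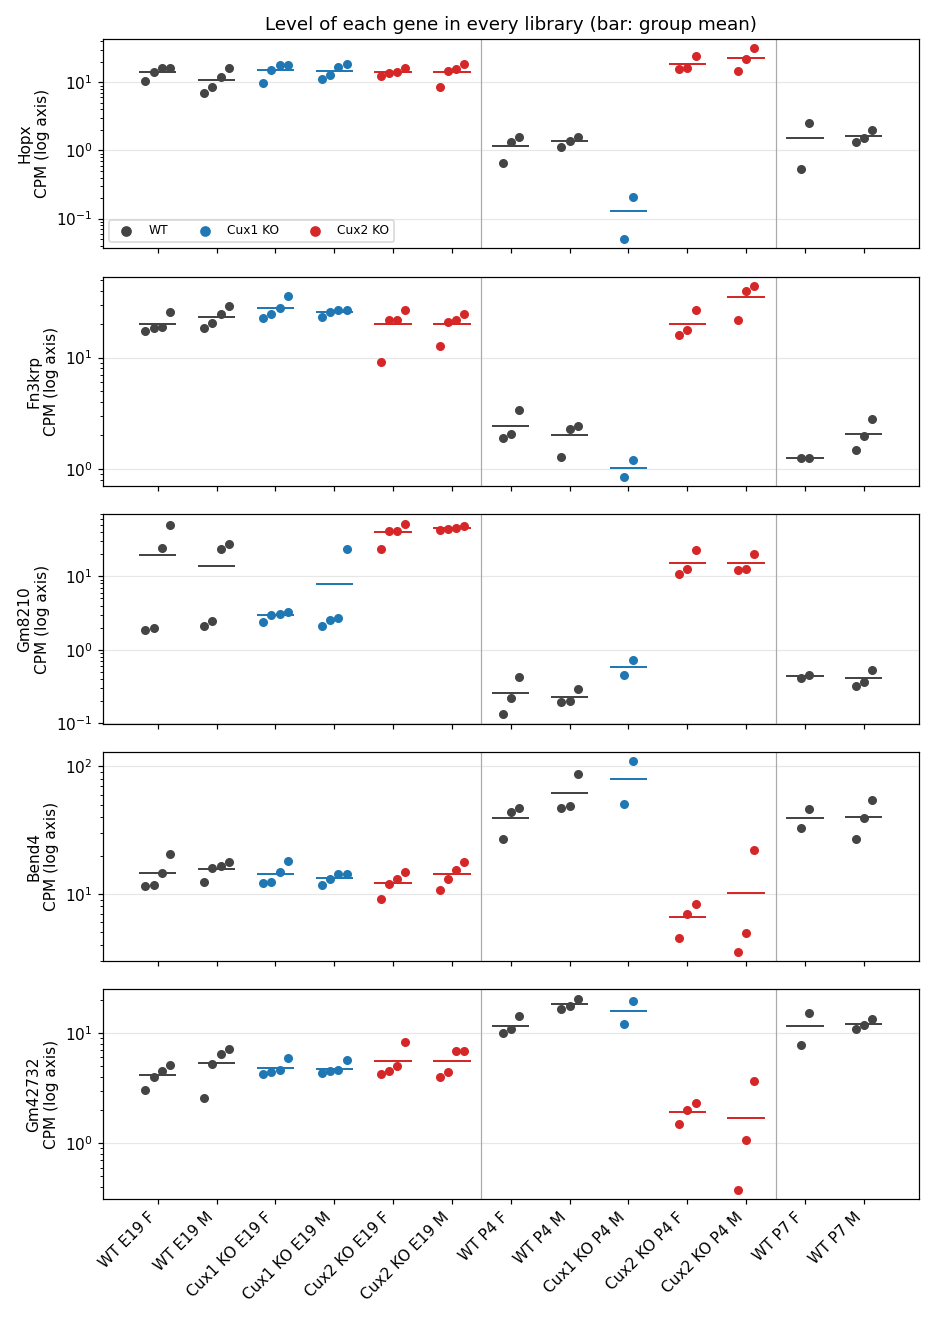
TMM-normalised CPM of each gene (log axis) in each of the 43 libraries, by group, with a bar at the group mean; F and M are females and males, and grey lines part E19, P4 and P7. Hopx and Fn3krp in Cux2 KO neurons at P4 (red) sit near the E19 libraries, with Hopx at 14.8 to 31.6 CPM, whereas WT libraries at P4 and P7 (grey) sit at 0.529 to 2.51 CPM of Hopx and at 1.25 to 3.37 CPM of Fn3krp.

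At E19 the levels of Hopx, Fn3krp, Bend4 and Gm42732 in Cux2 KO neurons overlapped those in WT neurons. Hopx was at 16.0, 14.1, 16.3 and 10.6 CPM in WT females and at 14.3, 12.6, 16.2 and 13.6 CPM in Cux2 KO females. WT males had 7.05, 16.0, 8.63 and 12.2 CPM and Cux2 KO males 8.55, 14.5, 16.0 and 18.6 CPM. The groups overlapped, and the log2FC of Hopx was 0.0059 ± 0.18 in females (adjusted p = 0.999, edgeR) and 0.38 ± 0.28 in males (adjusted p = 0.781, edgeR).

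Fn3krp at E19 was at 17.3 to 29.1 CPM in the 8 WT libraries (median 19.7) and at 9.19 to 26.7 CPM in the 8 Cux2 KO libraries (median 21.8), with a log2FC of -0.0043 ± 0.25 in females (adjusted p = 0.999, edgeR) and -0.23 ± 0.21 in males (adjusted p = 0.835, edgeR). Bend4 was at 11.6 to 20.5 CPM in WT (median 15.3) and at 9.18 to 17.8 CPM in Cux2 KO libraries (median 13.1), and Gm42732 was at 2.59 to 7.07 CPM (median 4.79) and 3.97 to 8.34 CPM (median 4.81). Their log2FC lay between -0.23 and 0.43 in the 2 sexes, and their libraries overlapped in both. The test called 0 of the 5 genes in females, against 0.0287% of 17436 genes, and 0 of 5 in males, against 0.121% of 17332. The SE of these 4 genes was 0.18 to 0.32. Their log2FC at P4 chose the genes and are no yardstick for these SE.

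Cux1 KO neurons at E19 gave no call among the 5 genes either, against 0.0576% of 17376 genes in females and 0.0979% of 17362 in males. Hopx was at 9.84 to 18.4 CPM in the 8 Cux1 KO libraries (median 15.9) and Bend4 at 11.7 to 18.0 CPM (median 13.7). Fn3krp was at 28.2, 22.6, 35.8 and 24.5 CPM in Cux1 KO females against 18.5, 18.9, 17.3 and 25.9 CPM in WT females, groups that overlapped at the lower Cux1 KO libraries, with a log2FC of 0.47 ± 0.16 (unadjusted p = 0.0133, adjusted p = 0.658, edgeR). The other log2FC of Hopx, Bend4, Fn3krp and Gm42732 lay between -0.26 and 0.40.

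In Cux1 KO males at P4, Hopx was below WT, while it was above WT in Cux2 KO males. The Cux1 KO libraries held 1 and 9 counts of Hopx, or 0.0502 and 0.208 CPM, and WT males 1.11 to 1.56 CPM. Both Cux1 KO libraries lay below the WT males, as did 23.1% of the 19601 genes tested, with a log2FC of -3.34 ± 1.16 (unadjusted p = 0.0344, adjusted p = 0.203, edgeR). By edgeR 0 genes were called in this comparison (0%), with 4021 at an unadjusted p under 0.05. With DESeq2 with its prior, which called 2247 genes, Hopx was called lower (log2FC -1.82, adjusted p = 0.0380), and it was called in a fit of all groups together by edgeR (log2FC -3.23, adjusted p = 0.00507), which called 2597. The median log2FC of all genes was -0.18 here, and the WT males were also controls in the choice of the genes.

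Fn3krp was at 0.854 and 1.20 CPM in the Cux1 KO males at P4, below the 1.29 to 2.45 CPM of WT males, with a log2FC of -0.98 ± 0.85 (adjusted p = 0.586, edgeR). Bend4 was at 109 and 51.0 CPM and Gm42732 at 12.1 and 19.6 CPM, levels that overlapped those of WT males, with log2FC of 0.37 ± 0.46 (adjusted p = 0.720, edgeR) and -0.21 ± 0.40 (adjusted p = 0.823, edgeR). Neither gene was near its level in Cux2 KO neurons of the same age. The 14 genes of motile cilia and ependymal cells summed to 15.1 and 26.8 CPM in the Cux1 KO libraries, with 5 of them at 0, and to 64.3 to 371 CPM in the 6 WT libraries at P4, against 98.1 to 178 CPM in the WT males alone. Other lists differed as well, with the 8 intermediate progenitor genes at 173 to 239 CPM in the Cux1 KO and 487 to 672 CPM in the WT males, the 10 microglia genes at 22.3 to 22.5 against 68.0 to 110 CPM, and the 10 upper-layer genes at 1738 to 2262 against 1217 to 1381 CPM. The radial glia and astrocyte list, at 9953 to 12645 against 9896 to 11885 CPM, overlapped. The part of these lists in the level of Hopx was not tested.

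Across WT stages, the genes that were high in Cux2 KO neurons at P4 fell between E19 and P4, and those that were low rose. Hopx fell from 12.6 CPM over the 8 WT libraries at E19 to 1.27 CPM over the 6 at P4, a log2FC of -3.28 ± 0.28 (adjusted p = 9.29e-08, edgeR). Fn3krp fell from 21.6 to 2.23 CPM, a log2FC of -3.28 ± 0.23 (adjusted p = 1.02e-08, edgeR). In neither gene did a P4 library reach the lowest E19 library, as in 24.5% of all genes tested.

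Bend4 rose from 15.1 to 50.4 CPM, a log2FC of 1.71 ± 0.20 (adjusted p = 2.86e-06, edgeR), and Gm42732 from 4.74 to 14.9 CPM, a log2FC of 1.63 ± 0.21 (adjusted p = 7.49e-06, edgeR). Gm8210 was lower by a log2FC of -6.00 ± 0.97 (adjusted p = 6.28e-05, edgeR), but its WT libraries at E19 were split. Of these, 4 had 1.84 to 2.50 CPM, 3 had 23.5 to 27.4 CPM and 1 had 49.9 CPM, against 0.133 to 0.431 CPM at P4. Rpl29 and its near-identical copies together were at 87.4 to 152 CPM in WT at E19 and at 47.4 to 59.5 CPM at P4. The test called 5 of 5 genes, but it called 45.9% of the 20091 genes tested, and the WT libraries at P4 had also been controls in the choice.

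The WT libraries at P7 took no part in the choice. Hopx was at 2.51 and 0.529 CPM in females and at 2.01, 1.33 and 1.54 CPM in males at P7, and Fn3krp at 1.25 and 1.25 CPM and at 1.97, 1.47 and 2.79 CPM. Against E19 the log2FC was -2.98 ± 0.35 for Hopx (adjusted p = 1.93e-06, edgeR) and -3.69 ± 0.22 for Fn3krp (adjusted p = 9.89e-10, edgeR). Bend4 (33.0 and 46.1 CPM in females, 26.9, 54.3 and 39.4 CPM in males) was higher than at E19 by 1.39 ± 0.19 (adjusted p = 9.37e-06, edgeR), and Gm42732 by 1.29 ± 0.24 (adjusted p = 0.000224, edgeR). All 5 genes were called, against 51.2% of 20892 genes, in a comparison chosen after seeing the data. Gm8210, at 0.322 to 0.537 CPM at P7, was again set against its split WT libraries at E19. Between P4 and P7 0 of the 5 were called, against 2.05% of 22385 genes, with log2FC of 0.29 ± 0.48 for Hopx, -0.40 ± 0.41 for Fn3krp and -0.34 ± 0.26 for Bend4.

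Set beside these stages, the Cux2 KO mean at P4 was 1.65 times the WT mean at E19 for Hopx and 1.28 times for Fn3krp. For Bend4 and Gm42732 it was 0.555 and 0.382 times the WT mean at E19, so that these means lay below those of either WT stage, although the first Cux2 KO male library of Bend4, at 21.9 CPM, was above every WT library at E19. In the order of group means, Hopx in the 2 Cux2 KO groups at P4 and in the 6 groups at E19 formed 1 run of groups in which each overlapped the next, and a gap without overlap parted WT males at E19 (11.0 CPM) from WT males at P7 (1.63 CPM). Fn3krp had a like gap between Cux2 KO females at E19 (19.9 CPM) and WT females at P4 (2.45 CPM). For Bend4 no gap parted the Cux2 KO groups at P4 from the groups at E19. For Gm42732 a gap lay between WT females at E19 (4.16 CPM) and Cux2 KO females at P4 (1.93 CPM).

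**Figure D2:**
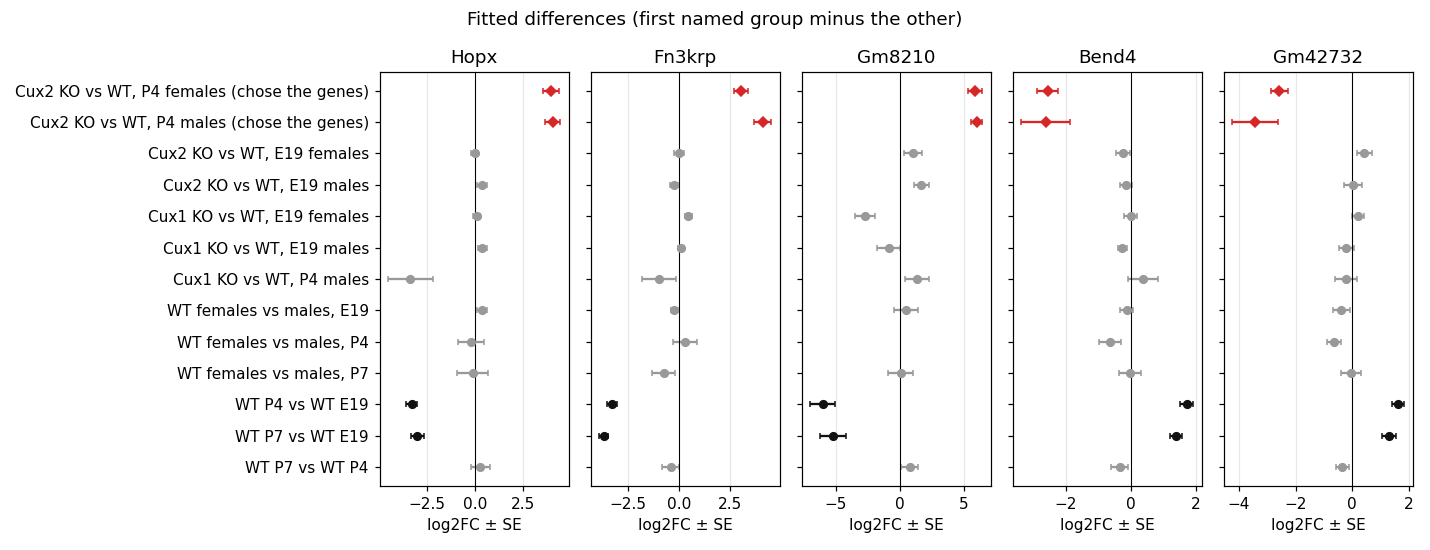
Fitted log2FC with SE for each gene in 13 comparisons, first named group minus the other, each panel with its own axis. Red diamonds are the comparisons that chose the genes, black points were called by edgeR and grey points were not; Hopx in Cux2 KO neurons was at 3.99 and 4.05 at P4 but at 0.0059 and 0.38 at E19.

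Between WT females and males the test called none of the 5 genes, of which Gm8210 was too low to be tested at P4, against calls in 0.0461% of 17344 genes at E19, 0% of 19213 at P4 (with 1398 genes at an unadjusted p under 0.05) and 0.0247% of 20271 at P7. The WT libraries at P4 had been controls in the choice, and the Cux2 KO females and males were not compared with each other. Gm42732 at P4 was higher in the 3 WT males (16.6 to 20.3 CPM) than in the 3 WT females (9.90 to 14.1 CPM), as 15.5% of all genes had libraries that did not overlap, with a log2FC of -0.64 ± 0.25 for females against males (unadjusted p = 0.0397, adjusted p = 0.675, edgeR). Bend4 had the same log2FC of -0.64 ± 0.33 (adjusted p = 0.723, edgeR), and its WT males at P4 were level with or above the females.

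Gm8210 behaved unlike the other 4 genes, since its level ran against that of Rpl29 library by library. The 6 WT libraries at P4 had 0.133 to 0.431 CPM of Gm8210, while the Cux2 KO libraries had 22.7, 10.9 and 12.7 CPM in females and 20.0, 12.8 and 12.3 CPM in males. In the same libraries Rpl29 was at 32.8 to 40.1 CPM in WT and at 1.57 to 24.8 CPM in Cux2 KO neurons. The first Cux2 KO library of each sex had the highest Gm8210 level and the lowest Rpl29 level.

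The fitted log2FC of Gm8210 was 5.85 ± 0.55 in females and 5.99 ± 0.44 in males. With the counts of Rpl29 and its near-identical copies summed as 1 feature, an alternative chosen after seeing the data, the log2FC was 0.18 in females and 0.30 in males. The pool was at 47.4 to 59.5 CPM in the WT and at 59.2 to 70.3 CPM in the Cux2 KO libraries at P4. Gm13841, identical to Gm8210 over its whole length, was at 11.4 to 15.5 CPM in WT and at 23.0 to 36.1 CPM in Cux2 KO neurons at P4.

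At E19 the same exchange was present within the WT group. Gm8210 was at 24.3, 2.00, 1.84 and 49.9 CPM in WT females and at 2.10, 27.4, 23.5 and 2.50 CPM in WT males. Cux2 KO libraries had 23.7, 41.6, 41.4 and 52.0 CPM in females and 44.6, 46.2, 42.4 and 47.9 CPM in males. Male groups did not overlap, as in 4.46% of all genes tested, while the female groups did, and Gm8210 was not called in either (log2FC 1.05 ± 0.72, adjusted p = 0.977, and 1.70 ± 0.60, adjusted p = 0.538, edgeR).

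Rpl29 itself was called lower in Cux2 KO males at E19, with a mean of 1.85 CPM against 43.4 CPM in WT males and a log2FC of -4.55 ± 0.36 (adjusted p = 7.40e-05, edgeR). In Cux2 KO females it was at 8.11 against 35.8 CPM, a log2FC of -2.15 ± 0.86 (adjusted p = 0.977, edgeR). The fourth WT female library at E19 also had Rpl29 at only 2.04 CPM. Over both sexes at E19 the pool was not lower in Cux2 KO libraries, at 122 to 195 CPM against 87.4 to 152 CPM in WT. Cux1 KO libraries at E19 had 2.14 to 3.27 CPM of Gm8210 in 7 of 8 libraries, and the log2FC of females against WT was -2.71 ± 0.80 (unadjusted p = 0.00449, adjusted p = 0.491, edgeR).

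Over the 43 libraries the share of Rpl29 in the pool fell into 3 ranges, 49.8% to 72.7% in 24 libraries, 20.4% to 36.8% in 9 and 0.567% to 4.35% in 10. At E19 the 8 WT libraries were split 4, 3 and 1 over these ranges from high to low, the Cux1 KO libraries 7, 1 and 0, and the Cux2 KO libraries 0, 1 and 7. At P4 the 6 WT and the 2 Cux1 KO libraries were all in the highest range, 4 of the 6 Cux2 KO libraries in the middle and 2 in the lowest, and all 5 WT libraries at P7 were in the highest. Gm14036, which has the letters of Gm8210 at both capital positions above, was at 2.74 to 5.77 CPM in the Cux2 KO and at 0 to 0.0359 CPM in the WT libraries at P4. The ranges were read from the levels and describe single libraries, so no test was made between them.

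**Figure D3:**
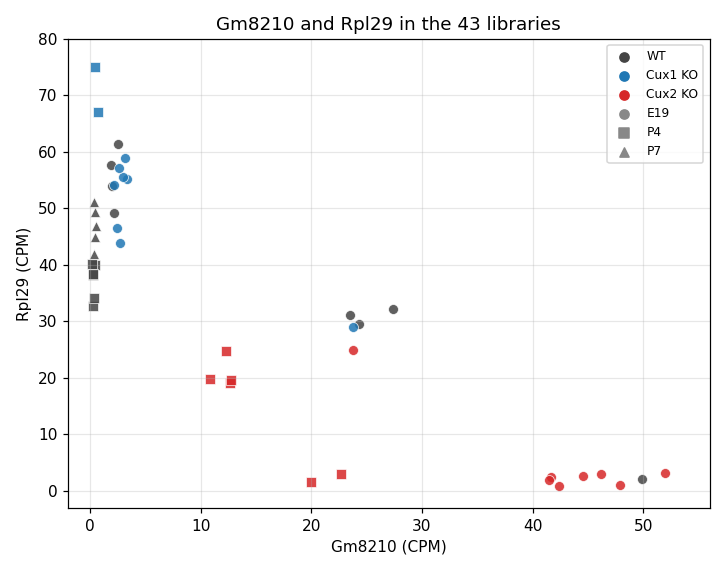
Rpl29 against Gm8210 in CPM, 1 point per library, coloured by genotype and shaped by stage. Libraries fell into separate clusters with Gm8210 at 0.133 to 3.27 CPM, at 10.9 to 27.4 CPM and at 41.4 to 52.0 CPM beside the 2 Cux2 KO libraries of P4 at 20.0 and 22.7 CPM, and Rpl29 was at 0.851 to 3.09 CPM in the libraries with the most Gm8210 of their stage.

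Hopx marks radial glia and astrocytes, so their genes were set beside it. Of the 24 genes of that list, which leaves out Hopx, 0 were called by edgeR in Cux2 KO neurons of either sex, in comparisons that called 0% of all genes at P4 and 0.0287% and 0.121% at E19, so these counts do not set the list apart. At an unadjusted p under 0.05 there were 2 of its genes in females and 1 in males at P4, and 0 and 6 at E19. Their median log2FC at P4 was 0.17 in females and 0.16 in males, against 0.018 and -0.0041 over all genes tested. The list summed to 9578 to 13562 CPM in the WT and to 10892 to 15823 CPM in the Cux2 KO libraries at P4, ranges that overlapped. Slc1a3, a glutamate transporter of astrocytes, had a log2FC of -0.45 ± 0.39 in females (adjusted p = 0.823, edgeR) and 0.84 ± 0.82 in males (adjusted p = 0.999, edgeR). Gfap, the intermediate filament of astrocytes, had 0.52 ± 0.25 (adjusted p = 0.697, edgeR) and 0.42 ± 0.32 (adjusted p = 0.999, edgeR).

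In WT neurons 13 of the 24 genes of the list were higher at P4 than at E19, unlike Hopx, among them Slc1a3, Aqp4, Gja1 and Sox9. The 3 genes Fabp7, Vim and Nes were lower, as Hopx was, beside calls in 45.9% of all genes. The median log2FC of the list between these stages was 1.38, against 0.04 over all genes. The 14 genes of motile cilia and ependymal cells summed to 64.3 to 371 CPM in WT and to 170 to 277 CPM in Cux2 KO females at P4. In males they summed to 98.1 to 178 CPM in WT and to 265 to 471 CPM in Cux2 KO libraries, which did not overlap. EdgeR called 0 of them in either sex, as it called 0% of all genes. At an unadjusted p under 0.05 (edgeR) there were 0 in females and 8 in males, against 1443 of 19538 and 1136 of 19720 genes. At E19 there were 0 of 8 tested in females and 6 of 7 in males, against 806 of 17436 and 1376 of 17332 genes. The sum in males at E19 was 27.4 to 324 CPM in Cux2 KO and 23.0 to 63.2 CPM in WT libraries, which overlapped. The median log2FC of the cilia and ependymal genes at P4 was -0.22 in females and 1.48 in males. Their part in the level of Hopx was not tested.

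**Figure D4:**
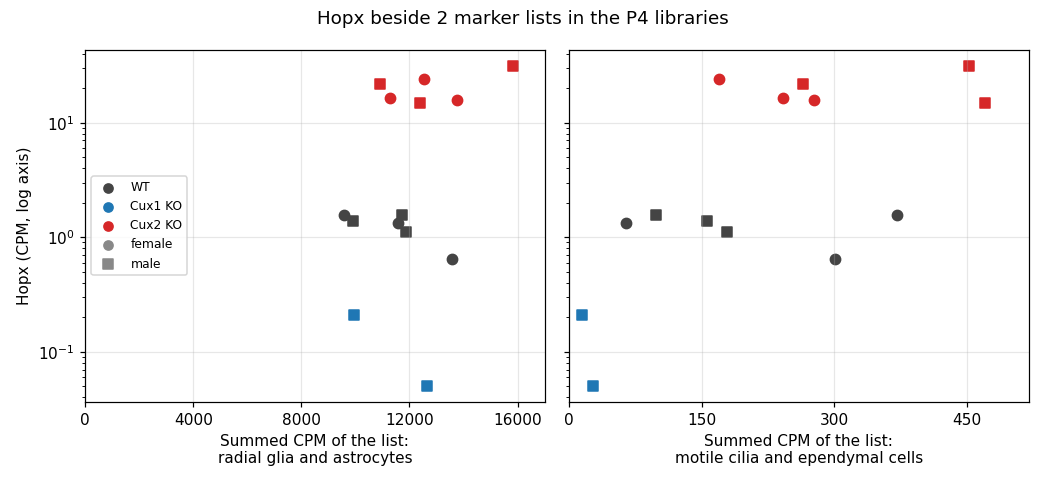
Hopx in CPM (log axis) against the summed CPM of the radial glia and astrocyte list (left) and the motile cilia and ependymal list (right) in the 14 libraries at P4, coloured by genotype, circles for females and squares for males. Hopx, chosen for its difference between Cux2 KO and WT, split by genotype. The left list overlapped between genotypes, at 9578 to 13562 CPM in WT and 10892 to 15823 CPM in Cux2 KO libraries. The right list overlapped in females but not in males, at 98.1 to 178 CPM in WT and 265 to 471 CPM in Cux2 KO males.

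A list of HOPX partners and of coactivators of serum response factor held 6 genes, Srf, Mrtfa, Mrtfb, Hdac1, Hdac2 and Epc1. Of these, 0 were called by edgeR in the Cux2 KO and Cux1 KO comparisons, which called 0% to 0.121% of all genes. From E19 to P4 in WT neurons 2 of the 6 were called, against 45.9% of all genes. Srf, serum response factor, fell with Hopx, from 39.8 to 4.10 CPM (log2FC -3.28 ± 0.26, adjusted p = 4.78e-08, edgeR), and so did its coactivator Mrtfa, from 56.6 to 9.89 CPM (log2FC -2.53 ± 0.26, adjusted p = 5.44e-07, edgeR). In Cux2 KO neurons at P4 the log2FC of Srf was -1.02 ± 0.67 in females (adjusted p = 0.757, edgeR) and -0.36 ± 0.56 in males (adjusted p = 0.999, edgeR). The median log2FC of the 6 genes from E19 to P4 was -0.70, against 0.04 over all genes.

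Of 7 other genes with a BEN domain, 4 fell from E19 to P4, namely Bend3, Bend5, Bend6 and Nacc1, and 0 rose, a share of calls near the 45.9% of all genes. Nacc1, a transcriptional repressor, had the lowest value, with a log2FC of -2.91 ± 0.20 (adjusted p = 1.10e-08, edgeR). Bend6 had a log2FC of 1.14 ± 0.54 in Cux2 KO females (adjusted p = 0.697, edgeR) and 1.64 ± 0.34 in Cux2 KO males at P4 (adjusted p = 0.326, edgeR), the opposite sign to Bend4.

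Of 10 genes of glycation repair and polyol metabolism, 4 rose from E19 to P4 and 1 fell, again near the 45.9% of all genes that were called. Those that rose were Glo1 and Hagh, which detoxify methylglyoxal, Sord, which oxidises sorbitol, and Khk, which phosphorylates fructose, with Glo1 at a log2FC of 1.95 ± 0.07 (adjusted p = 2.36e-11, edgeR). Ager, the receptor of advanced glycation end products, fell by 1.86 on the log2 scale (adjusted p = 0.0366, edgeR). Fn3k, the neighbour and closest relative of Fn3krp, was at 0 to 4.49 CPM in WT and at 0 to 1.88 CPM in Cux2 KO libraries at P4.

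The genes that flank or span the 5 are given by their values, since edgeR called 0 genes anywhere in Cux2 KO neurons at P4. Rest and Slc30a9, the abundant neighbours of Hopx and Bend4, had log2FC of 0.30 ± 0.18 and 0.34 ± 0.16 in females and of -0.54 ± 0.27 and 0.16 ± 0.16 in males (adjusted p from 0.691 to 0.999, edgeR). Tbcd, the neighbour of Fn3krp, had -0.25 ± 0.16 and 0.28 ± 0.20 (adjusted p = 0.749 and 0.999, edgeR), and Fhl2, which spans Gm8210, had -0.23 ± 0.54 and -0.03 ± 0.84 (adjusted p = 0.950 and 0.999, edgeR). Fryl, beside Gm42732, had -0.14 ± 0.16 and -0.65 ± 0.12 (adjusted p = 0.866 and 0.326, edgeR), with male libraries that did not overlap. Rab40b, beside Fn3krp, had 1.87 ± 1.34 and 0.66 ± 1.94 (adjusted p = 0.782 and 0.999, edgeR), with female libraries that did not overlap. Libraries of 15.9% of all genes did not overlap in females and of 12.5% in males. The libraries of Ociad2, AI597479 and Gm29041 overlapped in both sexes. Within 1 Mb of Hopx, the log2FC of the other genes tested at P4 ran from -3.01 to 1.18 in females (19 genes) and from -3.06 to 9.76 in males (20 genes), and within 1 Mb of Bend4 from -3.49 to 8.02 (16 genes) and from -2.21 to 2.28 (14 genes). The -3.01 and 9.76 were Thegl, beside Hopx, at 0.196 against 1.64 CPM in females and 2.28 against 0 CPM in males (Cux2 KO against WT). The 8.02 and -2.21 were C330024D21Rik, beside Bend4, at 0.912 against 0 CPM in females and 0.668 against 3.09 CPM in males. Each was at 0 CPM in WT libraries of 1 sex, where its groups did not overlap and the size of the log2FC is uncertain.

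On chromosome 5 as a whole, edgeR called 0 of 1121 genes in Cux2 KO females and 1 of 1114 in Cux2 KO males at E19, against 5 of 15559 and 20 of 15462 genes on the other autosomes. The single call was Rplp0, a ribosomal protein gene within 10 Mb of Cux2, with a log2FC of -0.81, and it was named after its value was seen. Between Bend4 and Hopx, where Gm42732 also lies, 65 genes were tested in females and 67 in males at P4.

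**Figure D5:**
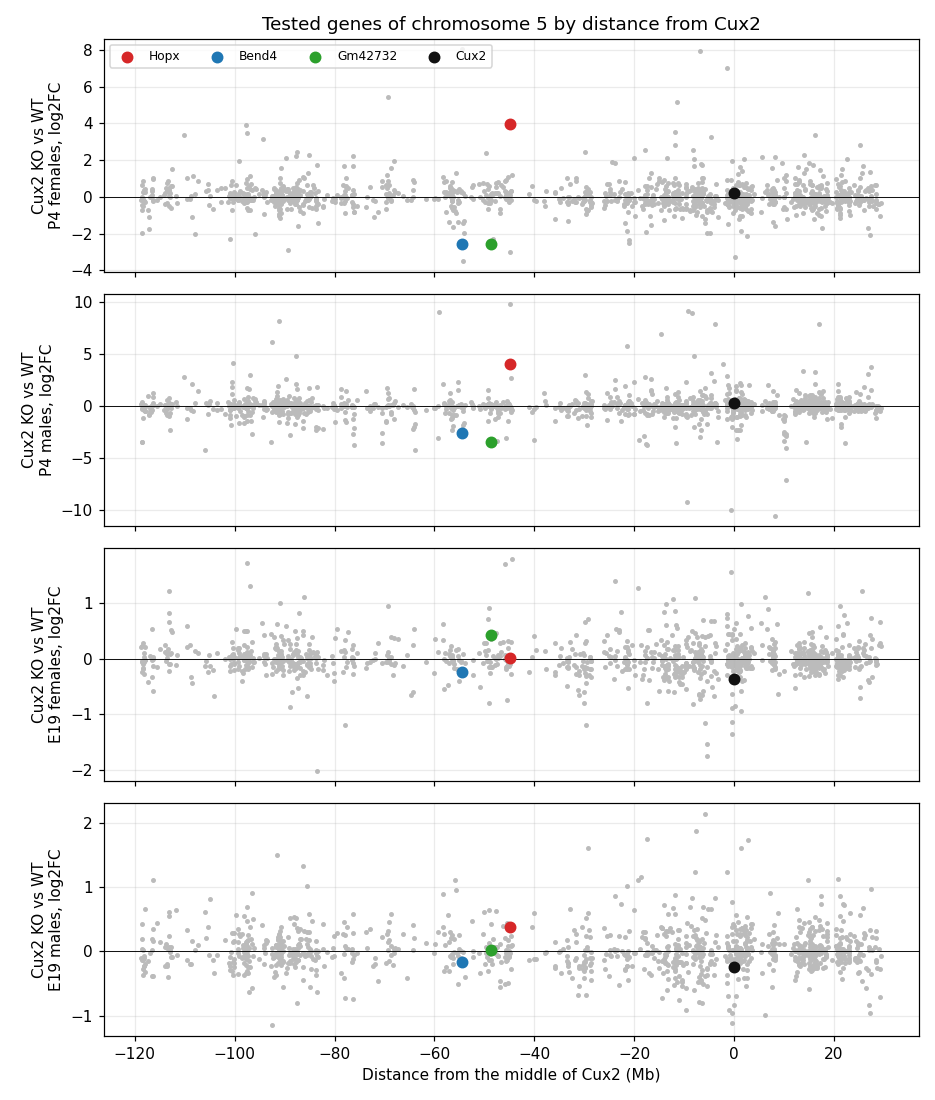
Log2FC of Cux2 KO against WT for each tested gene of chromosome 5 by its distance from the middle of Cux2 in Mb, with P4 above and E19 below and each panel with its own axis. Hopx, at 3.99 and 4.05, and Bend4 and Gm42732, at -3.43 to -2.56, stood off the line of 0 at P4, while at E19 the 3 genes lay between -0.23 and 0.43.

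By likeness over the 13 group means of log2 CPM, among 16991 genes, Hopx was nearest to Prr19 (Pearson r = 0.97), ENSMUSG00000121452 (0.97), Fn3krp (0.96), Casq1 (0.95) and Gm45428 (0.94). Fn3krp was nearest to Hopx, Prr19, ENSMUSG00000121452, Pirb and Pnldc1, at 0.92 to 0.96. The genes nearest to Bend4 included Gm42732 (0.95), Surf1 (0.91), Gm13688 (0.86) and Ociad1 (0.85). The 13 points share stage, round of sequencing and the groups that chose the genes. Within groups, over 43 libraries, the residuals of Bend4 and Gm42732 correlated at 0.53 and those of Hopx and Fn3krp at -0.06.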

How the data were processed

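The authors sequenced 60-nucleotide single-end reads from low-input RNA libraries, aligned them to GRCm39 with hisat2, removed duplicated reads above a threshold of 50 and ran featureCounts on primary alignments with the Ensembl 108 annotation. Raw counts per gene were deposited for 43 libraries, and all 43 were used. Reads without molecular identifiers are not independent molecules, so intervals and floors cover counting error only. The strand setting of the counting is not given in the sources used here.

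The 5 genes and all gene lists were chosen with earlier results of these data known. Genes named are these 5, Cux1 and Cux2, Gm14036, the genes that overlap or flank them, members of the lists, copies of Rpl29 and the 5 nearest by correlation, of which 1 is not reported here. Each comparison was fitted on the counts of its own groups with edgeR 4.0.16 (R 4.3.3), with TMM, filterByExpr, the two-sided quasi-likelihood test and Benjamini-Hochberg adjustment over all genes, and sex as a term between stages. A gene was called at an adjusted p under 0.05 and an absolute log2FC over 0.5 at E19 or over 1 otherwise. The 2 Cux2 KO comparisons at P4 carry no p for the chosen genes.

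Alternatives were DESeq2 1.42.0 with and without its prior, its size factors, no filter, all groups in one fit, a replicate block and leaving out each library. The tests were checked on simulated data. Positions came from GENCODE M39, which held 56236 of the 56980 genes, and copies of Rpl29 were matched over at least 480 bases at 99% identity or more. Same-numbered libraries were not taken as pairs. No libraries of a group agreed within sampling noise, so none was counted as a repeat of another.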

Additional observations from a re-analysis of the deposited data

Results flagged for a closer look

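Gm8210 in Cux1 KO males at E19 was at 23.8 CPM in the third library, while the other 3 libraries lay between 2.14 and 2.72 CPM, so that this library stood far from its group. Of 30 sets of 4 libraries examined, 5 genes in 6 groups, 1 was set apart in this way, and chance alone does so in about 1 set in 20. Rpl29 was at 29.0 CPM in that library and at 43.9 to 57.1 CPM in the other 3.

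Hopx in males at P4 lay on opposite sides of WT in the mutants, with a log2FC of 4.05 in Cux2 KO and -3.34 in Cux1 KO neurons, and every library of each mutant lay on its own side of the WT males. Fn3krp also lay on opposite sides, with 4.11 and -0.98. Neither gene was called by edgeR in Cux1 KO males (adjusted p = 0.203 and 0.586), in which 23.1% of all genes had both libraries below the WT males. The differences between the mutants were not tested, both comparisons share the 3 WT male libraries at P4, and the Cux2 KO side is the one that chose the genes.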

How the results depend on the processing

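The direction and call of the differences between WT at E19 and at P4 held for all 5 genes under every alternative run, and the number of the 5 called changed in 4 cases. Without the filter on low counts, 1 gene was called in Cux1 KO females at E19, Gm8210 (log2FC -2.71, adjusted p = 0.000938, edgeR). In Cux1 KO males at P4 1 gene, Hopx, was called by DESeq2 without shrinkage (log2FC -3.32), by DESeq2 with its prior (-1.82) and with all groups in one fit (-3.23). The cause was not tested. Genome-wide counts moved more. In Cux1 KO males at P4 they were 0 by edgeR, 3228 and 2247 by DESeq2 without shrinkage and with its prior, and 2597 with all groups in one fit. In Cux2 KO neurons at E19 they were 5 and 21 by edgeR in females and males against 22 and 66 by DESeq2 with its prior, and in Cux1 KO neurons 10 and 17 against 29 and 73. In WT neurons they were 459 and 570 from P4 to P7, and 0 and 85 between the sexes at P4.

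Signs turned in log2FC of -0.21 to 0.47, of which 0 were called, with the largest, 0.47 for Gm8210 between WT females and males at E19, turning to -0.57 without 1 WT female library. Hopx in Cux2 KO females at E19 gave -0.0011 and -0.00075 with DESeq2 and -0.00037 with its size factors. With the summed copies of Rpl29, Gm8210 between the sexes gave -0.0096 at E19 and -0.042 at P7. Leaving out 1 library at a time gave, at E19 in Cux2 KO females, -0.12 to 0.083 for Hopx and -0.17 to 0.23 for Fn3krp, in Cux2 KO males -0.19 to 0.20 for Gm42732, and in Cux1 KO females -0.026 to 0.25 for Hopx and -0.12 to 0.19 for Bend4. In Cux1 KO males at P4 it gave -0.28 to 0.81 for Bend4 and -0.62 to 0.095 for Gm42732. Between WT females and males it gave -0.57 to 1.02 for Gm8210 at E19, -0.45 to 0.10 for Hopx and -0.027 to 0.45 for Fn3krp at P4, and at P7 -1.60 to 0.62 for Hopx, -0.29 to 0.26 for Bend4, -0.62 to 0.36 for Gm42732 and -0.040 to 0.35 for Gm8210. From P4 to P7 Hopx gave -0.15 to 0.55.

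Replicate numbers did not pair the libraries, since residuals of same-numbered libraries correlated at a mean of -0.081 to 0.23 over 12 comparisons, and a replicate block changed no call among the 5 genes. With that block Bend4 gave 0.0078 in Cux1 KO females at E19 and 0.024 between the sexes at P7, where Gm8210 gave -0.025.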
